A study of Mus musculus with 7 samples.

Results

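SOX2 binding sites that carried JUND without FRA2 were examined in mouse striatal cells of embryonic origin. A site was a SOX2 event (a single base position called from ChIP-seq reads) with a JUND event within 100 bp and no FRA2 event within 100 bp. Of 26433 SOX2 events, 3553 met this rule (13.4%, 95% Wilson interval 13.0 to 13.9%). They were 21.7% (21.1 to 22.3%) of the 16375 SOX2 events with JUND. The other SOX2 events had JUND and FRA2 (12822), FRA2 without JUND (2091) or neither (7967).

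The STHdhQ7 line (Q7, genotype HdhQ7/Q7) carries huntingtin with a short glutamine tract on both alleles. The STHdhQ111 line (Q111, genotype HdhQ111/Q111) carries on both alleles the long tract of the kind found in Huntington's disease. Both lines have the 129SvEv/CD1 background, derive from striatum of embryonic day 14 and were used at fewer than 15 passages. Cultures were kept at 33 °C, then held 2 days at 39 °C ahead of each experiment as a step to halt division, which no table measures. FRA2, JUND and IgG were precipitated in both lines and SOX2 in Q7, with replicates 1 and 2 pooled into 1 sample in each case. No spread between replicates could be computed, and every difference between Q111 and Q7 is one between pooled libraries, not genotypes.

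SOX2 is an HMG-box transcription factor that maintains neural progenitors and often binds beside partner factors. JUND and FRA2 (product of Fosl2) are subunits of AP-1, a family of dimeric bZIP factors. Jun proteins such as JUND form homodimers or pair with Fos or ATF family members, whereas Fos proteins such as FRA2 bind DNA stably only with a partner from another subfamily. A JUND site can therefore hold dimers with or without FRA2.

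Reads in listed events came to 1193914 for SOX2, 1660158 and 1609483 for JUND in Q7 and Q111, and 3340554 and 3498922 for FRA2. The tables list 46583 JUND and 64579 FRA2 events. FRA2 reads at positions without a listed event were not analysed here, so a missing FRA2 event means that none was listed in either line, not that FRA2 was absent. No sequences or genes are given for the sites, since no mm9 genome or annotation was used here. Positions are those of mm9.

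The distance to the nearest FRA2 event varied over a wide range. The median site lay 1450 bp from a FRA2 event, with quartiles of 260 and 7255 bp. A FRA2 event beyond the limit but within 200 bp was present at 785 sites (22.1%, 20.8 to 23.5%), and 272 of these lay within 110 bp. A further 794 sites had FRA2 between 200 and 1000 bp away and 1264 between 1 and 10 kb. At 710 sites (19.98%, 18.7 to 21.3%) no FRA2 event lay within 10 kb. Among the 7967 SOX2 events with neither factor, 19.6% (18.8 to 20.5%) had FRA2 beyond the limit but within 200 bp, and 22.4% (21.5 to 23.3%) had none within 10 kb. Up to 110 bp, FRA2 was found at 7.66% of the sites and at 2.80% of the events with neither factor.

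Many of the close cases had FRA2 at the JUND event itself. At 555 sites (15.6%, 14.5 to 16.9%) the JUND event had a FRA2 event within 100 bp, at a median of 40 bp, while the SOX2 event did not. Of the 272 sites with FRA2 within 110 bp, 247 were of this kind. The JUND event of these 555 sites lay a median of 82 bp from SOX2, and the FRA2 event nearest to SOX2 a median of 113 bp. The limits themselves place such a FRA2 event within 200 bp of SOX2 and on the side of JUND. The remaining 2998 sites (84.4%, 83.1 to 85.5%) had no FRA2 event within 100 bp of SOX2 or of JUND.

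**Figure D1:**
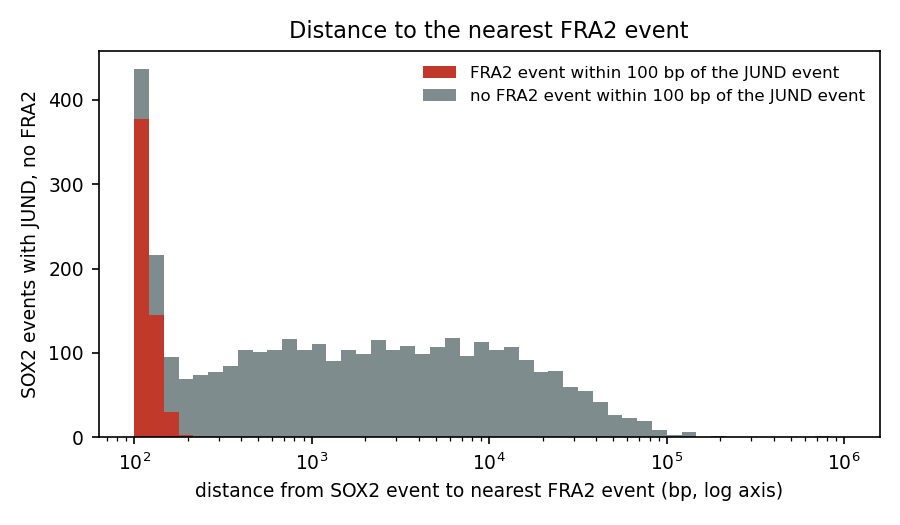
Distance from each of the 3553 SOX2 events with JUND and no FRA2 to the nearest FRA2 event (horizontal log axis, bp; vertical axis, number of SOX2 events), split by whether the JUND event itself has FRA2 within 100 bp. The 555 events with FRA2 at the JUND event make up most of the peak just beyond 100 bp, and the remaining 2998 spread over a wide range.

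Just inside and outside the limits the sites were alike in SOX2 reads. The 340 sites with JUND at 91 to 100 bp had a median of 34 SOX2 reads, and the 335 SOX2 events without FRA2 and with JUND beyond 100 and within 110 bp had 33.6. The 272 sites with FRA2 within 110 bp had a median of 40.8 SOX2 reads and 39 JUND reads in Q7. The 419 events with JUND that had FRA2 at 91 to 100 bp had 41 and 46.

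A missing FRA2 event went with low JUND reads. The 16375 SOX2 events with JUND were ranked by JUND reads over both lines in 10 equal groups. In the lowest group (median 33 JUND reads) 46.5% (44.1 to 48.9%) had no FRA2 event, and in the highest (median 229) 2.08% (1.49 to 2.89%). The highest group held 34 of the 3553 sites and the lowest 762. Over all sites the median JUND event held 28 Q7 and 23 Q111 reads, against 46.5 and 33 where FRA2 was also present. The part that the detection of FRA2 at weak sites plays in the rule was not tested.

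**Figure D2:**
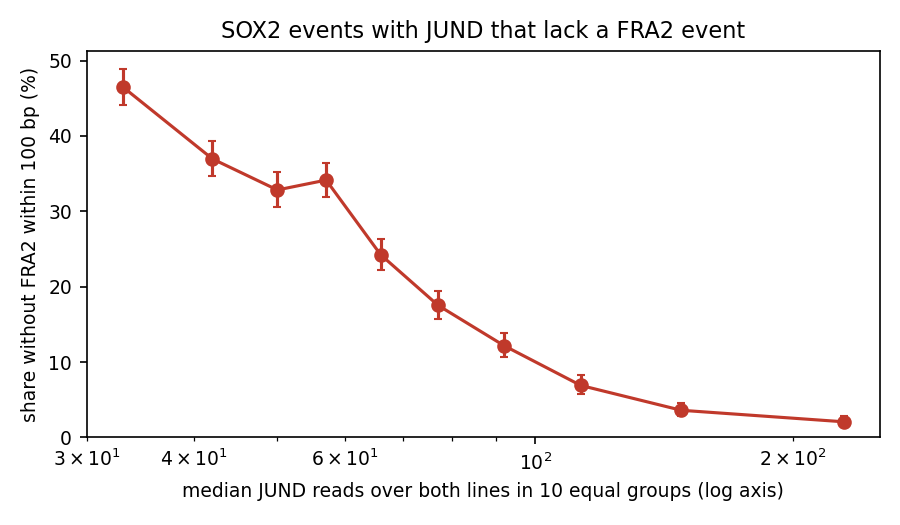
Share of SOX2 events with JUND that have no FRA2 event within 100 bp (vertical axis, %), in 10 equal groups ranked by JUND reads over both lines (horizontal log axis, group median). Bars are 95% Wilson intervals; the share goes from 46.5% at a median of 33 reads to 2.08% at a median of 229 reads.

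SOX2 reads at the sites had a median of 32.7, with quartiles of 26 and 48.3 and a range of 20 to 431.8. The median was 38 where JUND and FRA2 were both present, 31 with FRA2 alone and 28 with neither, and 33 over all SOX2 events. Control reads were alike, with a median of 4.3 in each of these classes. In the authors' deposited table the median ratio of SOX2 to control reads was 9.3 at the sites, 10.6 with both factors and 7.7 with neither. SOX2 reads also differed along the FRA2 distance. The median was 41 with FRA2 within 200 bp, 34 between 200 and 1000 bp, 31 between 1 and 10 kb and 29 beyond.

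JUND lay a median of 44 bp from SOX2, with quartiles of 21 and 73 bp, against 31 bp where FRA2 was also present. The distance says nothing of order or strand. JUND within 30 bp was found at 35.9% (34.3 to 37.5%) of sites and at 48.5% (47.7 to 49.4%) of sites with both factors. The share of sites went from 12.7% at 0 to 10 bp down to 8.36% at 61 to 70 bp and was 9.57% at 91 to 100 bp. With both factors it went from 17.7% to 2.56% over the whole range. Among the 2998 sites with no FRA2 at the JUND event either, the shares were 14.8% at 0 to 10 bp and 6.04% at 91 to 100 bp, with a median spacing of 38 bp. A JUND event near the limit leaves more room for a FRA2 event beside it that is beyond 100 bp of SOX2, so spacing and the missing FRA2 event are not independent. SOX2 reads differed little with spacing, with medians of 32 at 0 to 10 bp, 33 at 11 to 30 bp, 31 at 31 to 60 bp and 34 at 61 to 100 bp.

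**Figure D3:**
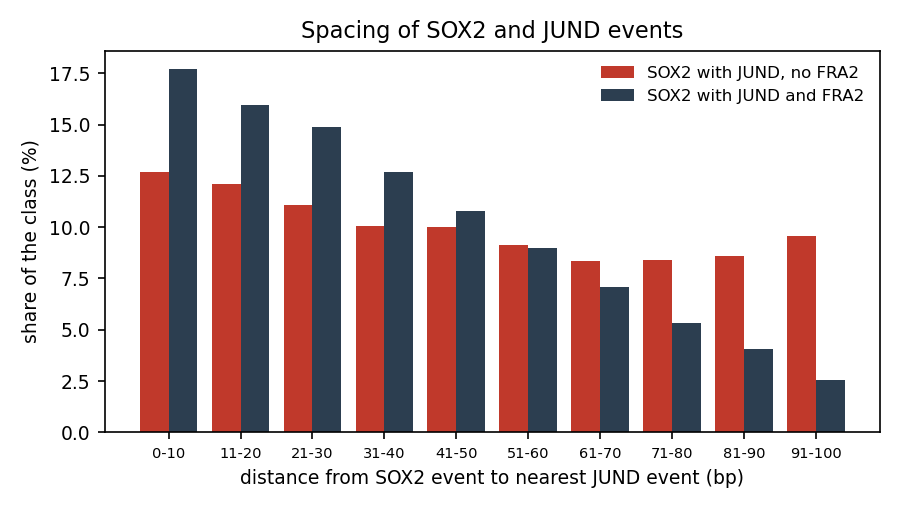
Share of sites (vertical axis, %) by distance from the SOX2 event to the nearest JUND event (horizontal axis, steps of 10 bp, the first of which also holds 0), for SOX2 events with JUND and no FRA2 and for those with both. The share without FRA2 is 12.7% in the first step and 9.57% in the last, and with FRA2 17.7% and 2.56%.

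JUND was then compared between the lines at these sites. Each site had a JUND event of its own, 3553 in all, and 4 sites had a second one within the limit. JUND was called higher in Q7 at 1147 sites (32.3%, 30.8 to 33.8%) and higher in Q111 at 128 (3.60%, 3.04 to 4.27%), and 2278 (64.1%) were not called. Over all JUND events 23.3% were called higher in Q7 and 17.4% higher in Q111. Where FRA2 was also present the shares were 35.8% and 3.55%, so few calls towards Q111 were not particular to the sites. At the JUND event nearest to each of all SOX2 events, at any distance, they were 33.3% and 5.67%. A call required an adjusted p below 0.05 (two-sided exact binomial test of the reads, Benjamini-Hochberg over all JUND events) and a fold of at least 2. The median log2 ratio of Q111 to Q7 was -0.45 at the sites, -0.60 where FRA2 was also present and -0.13 over all JUND events. SOX2 was mapped in Q7 alone, so the choice of sites already rests on one line.

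With libraries scaled by control reads, the median log2 ratio went to -1.12 at the sites and to -0.79 over all JUND events, and 1910 sites (53.8%) were called higher in Q7. Over all JUND events the share called higher in Q7 went from 23.3% to 43.0% with that scaling, so most of the rise was common to all events. Of all JUND calls 57.2% were higher in Q7 as reported and 83.2% with that scaling, and at the sites 90.0% and 98.6%.

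Sites called higher in Q7 had a median of 31 JUND reads in Q7 and 8 in Q111. Those called higher in Q111 had 14.9 and 43.6. Reads rounded to 0 in Q111 at 6 of the sites, and all 6 were called. Sites that were not called had 27.3 and 28.4. The authors marked JUND as present in Q7 alone at 2148 sites (60.5%, 58.8 to 62.0%), in both lines at 1048 (29.5%) and in Q111 alone at 357 (10.05%). Where FRA2 was also present, these shares were 37.0%, 59.7% and 3.27%, and over all JUND events 38.4%, 37.1% and 24.4%. Of the 2148 sites marked in Q7 alone, 1048 were not called different by reads. A listed JUND event had at least about the minimum of 20 reads in one line, so events with few reads over both lines were unequal by construction.

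**Figure D4:**
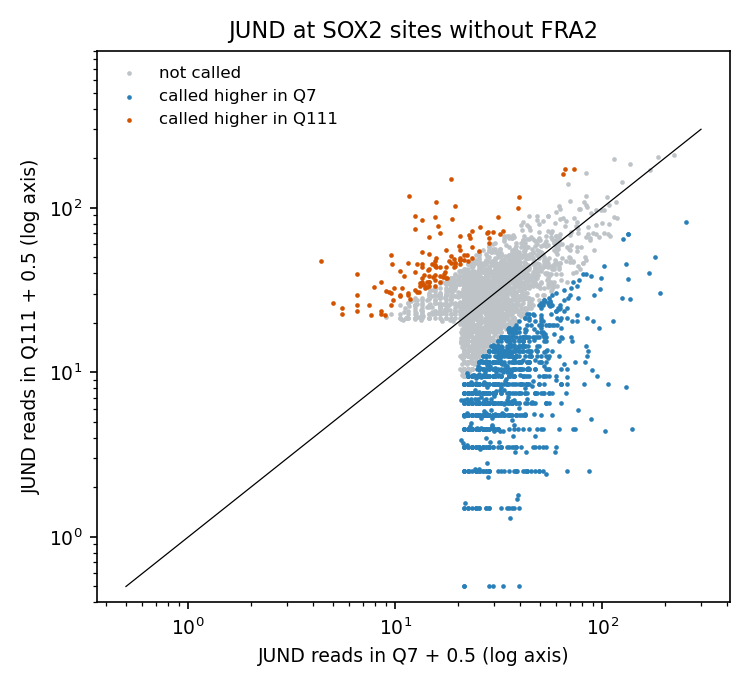
JUND reads in Q7 (horizontal axis) and Q111 (vertical axis, both log axes with 0.5 reads added) at the 3553 SOX2 events with JUND and no FRA2, 1 point per site, with the line of equal reads. The 1147 sites called higher in Q7 lie below the line and the 128 called higher in Q111 above it.

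Control reads in Q111 moved with this comparison. The mean control at the JUND events was 4.37 Q7 and 9.09 Q111 reads, against 4.52 and 7.21 with both factors and 4.32 and 7.18 over all JUND events. In the group of sites with the fewest Q111 control reads (mean 2.39) 46.6% were called higher in Q7 and the median log2 ratio was -0.97. In the group with the most (mean 17.5) the values were 13.9% and -0.10. These are the outer groups of 4 equal ones ranked by Q111 control reads. They also differed in median JUND reads over both lines (43.5 and 61.95) and in median SOX2 reads (38 and 29.15). The parts of these reads and of the control were not separated. With control reads subtracted from both lines the median log2 ratio at the sites went from -0.45 to -0.94 and that of all JUND events from -0.13 to -0.26. The part of the control in the JUND difference was not tested further.

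JUND was compared at equal reads with and without FRA2. In all 10 groups of equal JUND reads the median log2 ratio was less negative without FRA2. In the group with a median of 42 reads it was -0.69 without and -1.31 with FRA2. At a median of 66 reads it was -0.03 and -0.65, and at 229 reads, with 34 sites without FRA2, -0.04 and -0.19. The share called higher in Q7 went the other way at 229 reads, with 20.6% without and 14.7% with FRA2. In every other group that share was lower without FRA2. Mean Q111 control reads were higher without FRA2 in all 10 groups, for example 11.8 against 7.06 at a median of 66 reads. With control reads subtracted the ratio was less negative without FRA2 in 9 of 10 groups, and at 66 reads it was -0.41 and -0.81.

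Sites with more SOX2 reads were more often higher in Q7 for JUND. In 4 equal groups ranked by SOX2 reads, JUND was called higher in Q7 at 19.1% (16.7 to 21.8%), 21.6% (19.0 to 24.5%), 33.3% (30.3 to 36.5%) and 55.1% (51.8 to 58.3%) of sites. JUND was called higher in Q111 at 4.95%, 4.50%, 3.04% and 1.91% of them. The median log2 ratios were -0.12, -0.16, -0.54 and -1.25. In the lowest group the median JUND reads were 25 in both lines, and in the highest 35.9 in Q7 and 15.9 in Q111. Mean Q111 control reads in these groups were 9.92, 9.89, 9.31 and 7.24. With control reads subtracted the shares higher in Q7 were 29.6%, 30.1%, 41.0% and 55.4%, against 28.2% over all JUND events, so the lower 2 groups were near that share.

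The order held among sites of like JUND reads. Within each of 4 equal groups by JUND reads, the sites were ranked by SOX2 reads in 4 equal groups, and the lowest and highest were compared. At a median of 33 JUND reads 48.9% and 80.2% were called higher in Q7, and at 45 reads 14.9% and 64.0%. At 57 reads the shares were 3.60% and 47.3%, and at 81.8 reads 3.15% and 37.8%. Where FRA2 was also present, the 4 groups by SOX2 reads had 25.7%, 31.2%, 38.3% and 47.8% of sites higher in Q7. SOX2 was mapped in the line in which JUND was higher, and no SOX2 values of Q111 were analysed here.

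**Figure D5:**
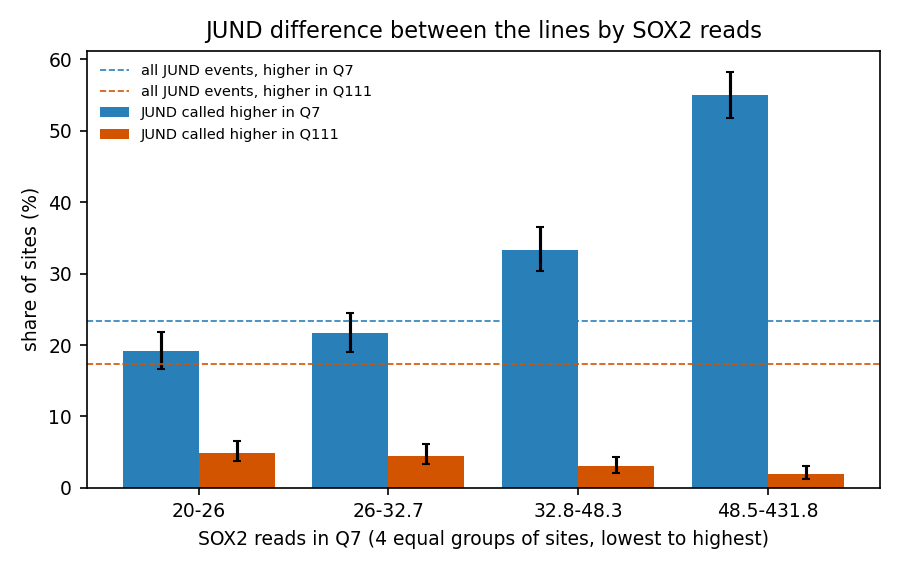
Share of sites (vertical axis, %) at which JUND was called higher in Q7 or in Q111, in 4 equal groups of the 3553 sites by SOX2 reads (horizontal axis, range of reads). Bars are 95% Wilson intervals and dashed lines the shares over all JUND events (23.3% and 17.4%); the share higher in Q7 is 19.1% in the lowest group and 55.1% in the highest.

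The JUND difference also varied with the distance to FRA2. JUND was called higher in Q7 at 38.1% (34.8 to 41.5%) of sites with FRA2 within 200 bp, 32.6% between 200 and 1000 bp, 32.7% between 1 and 10 kb and 24.8% (21.7 to 28.1%) beyond 10 kb. The last share is near the 23.3% over all JUND events. The share called higher in Q111 beyond 10 kb was 3.66%, against 17.4% over all JUND events. Median JUND reads beyond 10 kb were 26 in Q7 and 25.6 in Q111, with a median log2 ratio of -0.12. Along the same 4 ranges of distance median SOX2 reads were 41, 34, 31 and 29. Mean Q111 control reads were 7.31, 9.17, 9.63 and 10.01. The parts of distance, SOX2 reads and control were not separated. Spacing between SOX2 and JUND made little difference, with 32.4% higher in Q7 at 0 to 10 bp and 31.1% at 61 to 100 bp.

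FRA2 events within 1 kb, which the rule leaves at 1579 sites, were compared between the lines with the same test over all FRA2 events. Taking the FRA2 event nearest to SOX2 at each site, these were 1538 distinct events, with a median of 42.7 Q7 and 28.8 Q111 reads. FRA2 was called higher in Q7 at 487 (31.7%) and higher in Q111 at 59 (3.84%). Over all FRA2 events the shares were 21.3% and 23.3%.

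FRA2 values here are again those of the FRA2 event nearest to SOX2. At the 555 sites with FRA2 at the JUND event, it lay on the side of JUND at 539. At the rest it was not the FRA2 event at JUND. Among the 555, JUND and this FRA2 event were both called higher in Q7 at 171 sites and both higher in Q111 at 12. None was called in opposite directions, and 48 were called for JUND alone and 28 for FRA2 alone. The log2 ratios of the 2 factors correlated across these 555 sites with a Pearson r of 0.84 (Spearman 0.85). At the 1024 sites with FRA2 within 1 kb but not at the JUND event, r was 0.58 (Spearman 0.56), and 10 sites were called in opposite directions. The points share the 2 lines and their DNA and are not independent replicates.

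The 10 sites with the most SOX2 reads held 271.5 to 431.8 of them. At 9 of the 10, JUND was called higher in Q7. FRA2 lay within 100 bp of the JUND event at 3 of the 10.

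The strongest site, at chromosome 15 position 81758826, had 431.8 SOX2 reads, with JUND 91 bp away at 83 Q7 and 14 Q111 reads. This was a 6.05-fold difference (95% Clopper-Pearson interval 3.51 to 11.9), although the JUND control held 26.9 reads in Q111 and 9.2 in Q7. The nearest FRA2 event, 569 bp away, had 223 Q7 and 67 Q111 reads and was also called. Both AP-1 subunits were thus higher in Q7 there, at separate positions.

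At chromosome 3 position 108837580 there were 406 SOX2 reads, and JUND 56 bp away had 36.6 Q7 and 3.6 Q111 reads, a 9.51-fold difference (3.49 to 37.6). The nearest FRA2 event lay 3724 bp away and was not called, with 63 and 55 reads. At chromosome 9 position 34012273, with 305.9 SOX2 reads, JUND 12 bp away had 39 and 10 reads (3.96-fold, 2.01 to 9.21) and FRA2 was 20487 bp away. At chromosome 10 position 24153768, with 271.5 SOX2 reads, JUND 70 bp away had 89.9 and 20 reads (4.64-fold, 2.89 to 8.11) and the FRA2 event 13413 bp away, with 67 and 26, was also called. These 3 are strong SOX2 sites with JUND and no FRA2 event for several kb.

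FRA2 sat close by at other strong sites. At chromosome 19 position 32394252 (415 SOX2 reads) JUND 66 bp away had 168.3 Q7 and 39.5 Q111 reads, a 4.44-fold difference (3.11 to 6.40). FRA2 103 bp from SOX2, and 37 bp from JUND, had 281.3 and 147.8 reads and was not called. At chromosome 10 position 27708187 (324 SOX2 reads) JUND had 180 and 50 reads and FRA2, 23 bp from JUND, 310.2 and 129, both called higher in Q7. At chromosome 11 position 120991122 (309 SOX2 reads) the lines differed little: JUND had 170 Q7 and 169.3 Q111 reads, and FRA2, 25 bp from it, 227.6 and 280.7.

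At chromosome 3 position 156454403, with 281 SOX2 reads, JUND 56 bp away had 102.1 Q7 and 3.9 Q111 reads, a 24.5-fold difference (10.2 to 100.3). The FRA2 event nearest to SOX2 lay 105 bp away on the other side, with 388.7 and 59.1 reads. A different FRA2 event lay 108 bp from JUND, and its reads are not given here. At chromosome 13 position 5257381 (281.3 SOX2 reads) JUND 95 bp away had 46.9 and 11.4 reads, and FRA2 368 bp away 134.6 and 66, both called. At chromosome 10 position 44436627 (346.5 SOX2 reads) JUND had 22.3 and 6.1 reads, a 3.63-fold difference with an interval of 1.52 to 11.6. With 28 reads after rounding, the call at this last site was lost with control reads subtracted, with an assumed dispersion of 0.05 and with a minimum of 40 reads.

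Other sites stood farthest towards Q7 by the interval of their JUND fold. At chromosome 3 position 126778561 (258 SOX2 reads) JUND had 139 Q7 and 4 Q111 reads, a 32.6-fold difference (13.9 to 136.0; exact binomial test, Benjamini-Hochberg adjusted p = 1.51e-34). FRA2 72 bp from JUND had 92.6 and 8.6 reads. At chromosome 2 position 136935927 (181.8 SOX2 reads) JUND had 86 and 2 reads, a ratio of 36.4 with an interval of 12.1 to 379.3, and FRA2 123 bp away had 136 and 7. Both factors were higher in Q7 at these 2 sites.

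At 2 further sites of this kind FRA2 was kilobases away. At chromosome 13 position 12595927 (89 SOX2 reads) JUND had 39 Q7 and 0 Q111 reads. Against a floor of 3 reads it was at least 13.7-fold higher in Q7, and the 95% interval, which also covers the counting error of the Q7 reads, starts at 10.6-fold. With a minimum of 40 reads this site was not called. The FRA2 event 3310 bp away had 20 and 25 reads and was not called. At chromosome 10 position 83389824 (78 SOX2 reads) JUND 14 bp away had 67 and 2 reads, a ratio of 28.4 (9.38 to 296.8), and FRA2 2955 bp away had 25 and 9 and was also called higher in Q7.

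Sites farthest towards Q111 had few SOX2 reads, from 23 to 28. At chromosome 15 position 66553967 (28 SOX2 reads) JUND 38 bp away had 11.1 Q7 and 117.7 Q111 reads, a 9.69-fold difference (5.50 to 21.0; exact binomial test, Benjamini-Hochberg adjusted p = 2.75e-20). The nearest FRA2 event, 5784 bp away, was not called. The SOX2 event there also held 11.9 control reads.

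At chromosome 8 position 85395068 (24 SOX2 reads) JUND 7 bp away had 18 and 149 reads (7.69-fold, 4.81 to 13.7), and FRA2 117 bp from SOX2 had 20.6 and 96.9. At chromosome 15 position 43438687 (23 SOX2 reads) JUND had 3.9 and 46.9 reads, a 10.2-fold difference (4.09 to 42.7), and FRA2 2913 bp away had 95 and 490. Both factors were called higher in Q111 at each of these places.

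At chromosome 10 position 69957381 (28 SOX2 reads) JUND had 15.3 Q7 and 108.1 Q111 reads, and FRA2 840 bp away 6.7 and 46. At chromosome 13 position 24287364 (24 SOX2 reads) JUND had 12 and 89, and FRA2 68 bp from JUND 14 and 87. FRA2 was thus called in the same direction as JUND at 4 of the 5 sites farthest towards Q111.

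All 5 sites with the most JUND reads had FRA2 within 4 to 25 bp of the JUND event and JUND 82 to 98 bp from SOX2. At chromosome 15 position 33854123 JUND had 221.8 Q7 and 209.8 Q111 reads, and FRA2, 4 bp from it and just past the limit from SOX2, had 504.3 and 536.6. At chromosome 15 position 76034797 JUND had 185.8 and 204, and FRA2 411 and 409. Neither factor was called at these 2 sites.

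At chromosome 15 position 84111430 JUND had 253.9 Q7 and 81 Q111 reads, a 3.28-fold difference (2.56 to 4.29), while FRA2 22 bp away had 429.1 and 227.7 and was not called. At chromosome 5 position 107516489 JUND had 135 and 183 reads, and FRA2 326.7 and 440.4, with neither called. Of the 5, which include the chromosome 11 site named above, JUND was called different at 1.

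The sites farthest from FRA2 had ordinary JUND reads. At chromosome 9 position 19426468 (63 SOX2 reads) the nearest FRA2 event was 763190 bp away, and JUND 18 bp from SOX2 had 39 Q7 and 28 Q111 reads. At chromosome 16 position 69577668 (30 SOX2 reads) FRA2 was 752336 bp away and JUND had 22 and 37 reads. At chromosome 6 position 138090010 (30 SOX2 reads) FRA2 was 297916 bp away and JUND had 15 and 21 reads. JUND was called different at none of these 3 sites.

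Where JUND lay within 5 bp of SOX2, the sites with the most SOX2 reads differed in their JUND. At chromosome 8 position 3260300 (258.8 SOX2 reads) JUND 2 bp away had 87.3 Q7 and 4.7 Q111 reads, a 17.8-fold difference (7.55 to 57.8), and FRA2 106 bp away had 78.5 and 2. At chromosome 13 position 71501333 (239 SOX2 reads) JUND 1 bp away had 38 and 11 reads (3.52-fold, 1.82 to 7.88), with Q111 control at 12.9, and FRA2 was 10905 bp away. At chromosome 3 position 159549149 (231 SOX2 reads) JUND 1 bp away had 62 and 46 reads and was not called. Just inside the JUND limit, at chromosome 13 position 19683118 (250 SOX2 reads), JUND 96 bp away had 38 and 17 reads, a 2.31-fold difference (1.30 to 4.44) that was not called with an assumed dispersion of 0.05.

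Along the genome the sites were spread over all chromosomes of the table. Their share of SOX2 events with JUND ranged from 15.1% (11.8 to 19.1%) on chromosome 14, with 55 sites, to 27.2% (24.2 to 30.4%) on chromosome 19, with 212. Chromosome 10 held the most sites, 332 (25.6%). The median JUND log2 ratio was negative at the sites of every chromosome, from -0.14 on chromosome 5 to -1.10 on chromosome X, which held 34 sites. Over all JUND events of a chromosome it ranged from -0.67 on chromosome 17, where the sites had -0.79, to 0.21 on chromosome 14, where they had -0.18. On chromosomes 10 and 19 the sites were near all events, at -0.34 against -0.29 and -0.44 against -0.37. Within 1 kb of another site lay 176 of the 3553.

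In windows of 1 Mb, 20 of the 1344 windows with a site held 10 or more, and 250 sites in all. These windows were chosen after their values were seen. Chromosome 10 from 80000001 to 81000000 held 20 sites among 52 SOX2 events, and JUND was called different at none of them (median log2 ratio 0.06). Chromosome 15 from 76000001 to 77000000 held 13 sites, also with no call. JUND was higher in Q7 at 9 of the 17 sites on chromosome 10 from 96000001 to 97000000 (median -1.005) and at 7 of the 11 on chromosome 8 from 10000001 to 11000000 (median -1.52). The share was 32.3% over all the sites and 23.3% over all JUND events. Median SOX2 reads were 47 and 53 in these 2 windows, and 34 and 31 in the 2 without a call. Events in one window are not independent, and whether calls cluster along the genome was not tested.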

How the data were processed

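ChIP-seq tables of SOX2 in Q7, and of FRA2 and JUND in Q7 and Q111, were used. Bowtie 0.12.7 and mm9 are named in the submitters' processing notes. Events carry the name of GPS, a caller that assigns reads to single positions; no version or setting of it was at hand. The IP columns are deposited expected counts: reads assigned to an event by the authors, not scaled. Control columns are a deposited signal, control reads scaled by the authors by a factor that is not given. Which library served as control is not stated. Present marks, the deposited ratio (Fold) and the −log10 q-value are the authors' own. A further 12 value columns were not used.

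Events were matched by position, nearest first, within 100 bp. Q111 and Q7 reads, rounded to whole numbers, were compared over each whole table by a two-sided exact binomial test, with Benjamini-Hochberg adjustment, at 20 or more reads. The share under no difference was set by the median log2 ratio of events present in both lines (0.07 for JUND, 0.05 for FRA2). Folds used a pseudocount of 0.5 reads. The test was tried on simulated Poisson counts, which have no spread between replicates. That trial cannot show how often false calls arise between pooled libraries. Intervals are 95% Wilson or Clopper-Pearson intervals and, like the floor of 3 reads, cover counting error only: PCR reads are not independent molecules. Python 3.11.15 with scipy 1.17.1 was used.

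Named sites were the 10 with the most SOX2 reads, the 5 called per direction with the farthest JUND intervals, the 5 with the most JUND reads, the 3 farthest from FRA2, and the 3 with the most SOX2 reads having JUND within 5 bp, JUND at 91 to 100 bp or FRA2 within 110 bp. The sites and the rules were chosen with earlier results of these data known. Motifs, genes and genomic locations, planned only for an mm9 reference, were not analysed here. Alternatives changed the limits, scaling, filters and thresholds.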

Additional observations from a re-analysis of the deposited data

How the results depend on the processing

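No paired analysis was possible because replicates 1 and 2 were pooled into 1 sample per group, and for the same reason no replicate could be left out. The median JUND log2 ratio (-0.45) stayed negative under every alternative run, and merging adjacent events, leaving out events with 40 or more control reads, or taking the JUND event with the most reads changed no value beyond its interval or by 1.5 times. With a limit of 50 bp the median SOX2 reads were 35, spacing 28 bp, log2 ratio -0.55, FRA2 distance 234 bp, and 64.0% of sites had FRA2 within 1 kb (44.4% as reported). With 200 bp the SOX2 median was 31, spacing 52 bp, FRA2 distance 2797 bp and the share 30.7%. One alternative matched only AP-1 events marked present in Q7, whether or not they were also marked in Q111. The log2 ratio was then -0.56, the FRA2 distance 1657 bp, and 36 sites were called higher in Q111 (128 as reported). SOX2 events with a −log10 q of at least 5 left 2053 sites, with medians of 45 SOX2 reads, -0.77 and 1009 bp, 62 sites higher in Q111 and 49.9% with FRA2 within 1 kb. The log2 ratio was -0.34 scaled by total reads, -0.38 unscaled, -0.94 with control subtracted and -1.12 scaled by control reads, which left 27 sites called towards Q111 and 1910 towards Q7 (1147 as reported). Sites higher in Q111 numbered 195 (5.49%) with a fold limit of 1.5 and 40 (1.13%) with a limit of 3. No share of all JUND events was computed at these 2 limits, so these counts are not read as particular to the sites. With an assumed dispersion of 0.05 there were 35 calls towards Q111 and 653 towards Q7. The share higher in Q7 was then 18.38% of the sites and 12.01% of all JUND events, against 32.28% and 23.26% as reported. The share higher in Q111 was 0.9851% of the sites and 9.164% of all JUND events, against 3.603% and 17.37% as reported. Calls towards Q7 thus fell in a like way at the sites and over all JUND events. Calls towards Q111 fell in both, and by a larger part at the sites. A minimum of 40 reads gave 581 sites higher in Q7 (16.35%). The share of all JUND events at this minimum was not computed, so the count is not read as particular to the sites. Alternatives chosen after seeing the data: without the 555 sites with FRA2 at the JUND event, spacing was 38 bp, FRA2 distance 2416.5 bp and the share within 1 kb 34.2%. With no FRA2 within 1 kb, 1974 sites were left, with medians of 30 SOX2 reads, 39 bp spacing, -0.34 and 6011 bp, 589 higher in Q7 and 62 in Q111. Of 30 named sites, 3 lost their call under some alternative, 2 gained one with control scaling and none reversed. The motif alternatives were not run. The median site held 51.4 JUND reads over both lines, which limits calls of small differences.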
